A study of Mus musculus with 8 samples.

Results

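The genes of the unfolded protein response (UPR) and the chaperones of the endoplasmic reticulum (ER) were examined in N2A neuroblastoma (NB) tumors of mice treated with vehicle or SR59230A. They are a list of 35 genes, chosen by name for their known place in the pathway, out of 35458 genes with a summed count. They comprise 21 ER chaperone and ER-associated degradation (ERAD) genes, 4 genes of the stress sensors and Xbp1, and 10 genes of the ATF4 arm. The group of 4 is called the sensor genes below, although Xbp1 encodes a transcription factor and not a sensor. All 35 were matched, and 34 were among the 15207 genes that passed the filter on low counts. Derl3, an ERAD component of secretory tissues, was left out by that filter, with 0 to 4 reads per tumor.

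Neuro-2a (N2A) is a mouse NB line. For both groups, 1000000 N2A cells were implanted under the skin of A/J mice, which the methods describe as female and 4 weeks old when bought, and dosing began once a mass could be felt. The 4 vehicle tumors (numbered 0 to 3) came from mice given physiological solution, and the 4 SR59230A tumors (numbered 1 to 4) from mice given 10 mg/kg of SR59230A, which blocks the β3-adrenergic receptor, with 2 intraperitoneal doses per day. RNA was taken from whole tumor masses, so host cells contribute, and all tumors derive from 1 cell line. Nothing states that each tumor came from a separate animal. The study's figure legend describes the sequencing as done in duplicate, while 4 libraries per group were given. Whether some libraries come from the same tumor is therefore not known, and each library is called a tumor here. Here p-values treat the libraries as separate tumors and measure only the spread between them.

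Total estimated counts ran from 28614914 to 44045575 in vehicle tumors and from 23484190 to 43675495 in SR59230A tumors. Some libraries stood apart. Transcripts of the satellite-like class took 11.9% of counts in vehicle tumor 0, 8.68% in vehicle tumor 3 and 6.46% in SR59230A tumor 4, against 0.00552% to 0.716% elsewhere. SR59230A tumor 3 had the highest share of mitochondrially encoded reads (7.50%, against 1.31% to 6.14%) and of the single gene Noct (17.0%, against 7.61% to 10.4%). Skeletal muscle markers summed to 2349 CPM (counts scaled to the library's total) in SR59230A tumor 1 and 210.1 CPM in SR59230A tumor 2, against 7.74 to 30.4 CPM in the other tumors. Markers of NB cells, which check the labelled cell type, were present in every tumor and summed to 2364 to 4832 CPM.

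The ER folds secreted and membrane proteins with the help of BiP (Hspa5), disulfide isomerases and lectin chaperones, and hands misfolded ones to ERAD, which passes them to the proteasome. When unfolded proteins build up, ATF6 and the IRE1-XBP1 branch induce chaperone and ERAD genes, while PERK phosphorylates eIF2α and so favors translation of ATF4. ATF4, which also responds to amino acid shortage, induces genes of amino acid synthesis and, under lasting stress, of cell death such as Ddit3 (CHOP).

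Promoter sequences were searched for elements known from the UPR and from the response to amino acid shortage. The genes were chosen for their known place in these pathways, so the counts are not independent of that choice. RefSeq promoters (GRCm38.p6, 250 bases before to 50 after the start) were given for 31 of the 35 genes; Hyou1, Manf, Derl1 and Atf6 had none in the table. The ER stress element (ERSE, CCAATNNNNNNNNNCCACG, on either strand), which ATF6 binds together with NF-Y, was in 9 of 18 chaperone and ERAD genes. It was in 0 of 3 sensor genes, in 0 of 10 ATF4 arm genes and in 37 of 27025 genes overall (0.137%; 0.119% of all promoters). ERSE-II (ATTGG followed by CCACG, 1 base apart) was in 2 further chaperone and ERAD genes, Dnajb11 and Herpud1, against 0.0444% of all genes, so no promoter of the list held both. Neither the UPR element spelled TGACGTGG (in 0.714% of genes) nor the amino acid response element spelled TGATGNAAT (in 1.08% of genes) was in any of the listed promoters. Other spellings of these elements were not searched. The Asns promoter holds TGATGAAAC, which differs from the searched letters only in the last base. The promoters of Atf3, Chac1 and Herpud1 also hold letters that differ only there, on the opposite strand. Herpud1 is a chaperone and ERAD gene, so such a near match is particular neither to Asns nor to the ATF4 arm. Its frequency over all promoters was not counted. The 150 bases before the start are shown for 7 genes with an ERSE, for Herpud1 with its ERSE-II and for Edem1 without either, 5′ to 3′ on the gene's strand. Capitals mark the ERSE or ERSE-II letters, which in Hsp90b1 and Creld2 lie on the opposite strand. Positions and windows follow the RefSeq start, and the GENCODE models of Hspa5, Hsp90b1 and Pdia6 start within the windows shown. A match describes letters only and is neither a binding site nor a cause.
Hspa5, chr2:34771940-34772089, strand +: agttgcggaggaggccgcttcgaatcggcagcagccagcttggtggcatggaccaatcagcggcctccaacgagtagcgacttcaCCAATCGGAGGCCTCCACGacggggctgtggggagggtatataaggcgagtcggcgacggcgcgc
Hsp90b1, chr10:86705445-86705594, strand -: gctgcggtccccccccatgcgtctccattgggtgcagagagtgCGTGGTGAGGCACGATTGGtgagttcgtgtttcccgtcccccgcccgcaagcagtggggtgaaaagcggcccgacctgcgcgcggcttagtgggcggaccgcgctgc
Dnajc3, chr14:118937782-118937931, strand +: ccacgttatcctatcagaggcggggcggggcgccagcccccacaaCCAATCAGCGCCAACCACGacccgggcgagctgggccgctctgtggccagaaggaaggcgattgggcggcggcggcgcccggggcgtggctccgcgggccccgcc
Pdia6, chr12:17266439-17266588, strand +: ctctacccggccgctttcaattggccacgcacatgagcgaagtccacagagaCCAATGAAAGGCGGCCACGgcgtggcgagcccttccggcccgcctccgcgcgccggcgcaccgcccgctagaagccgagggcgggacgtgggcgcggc
Canx, chr11:50325674-50325823, strand -: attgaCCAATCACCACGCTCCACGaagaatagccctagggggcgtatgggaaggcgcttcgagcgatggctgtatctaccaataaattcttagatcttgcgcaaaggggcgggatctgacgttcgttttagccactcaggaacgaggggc
Creld2, chr15:88819496-88819645, strand +: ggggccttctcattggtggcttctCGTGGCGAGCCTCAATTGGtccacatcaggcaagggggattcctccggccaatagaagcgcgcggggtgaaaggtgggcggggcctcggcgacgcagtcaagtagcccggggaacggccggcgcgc
Syvn1, chr19:6046426-6046575, strand +: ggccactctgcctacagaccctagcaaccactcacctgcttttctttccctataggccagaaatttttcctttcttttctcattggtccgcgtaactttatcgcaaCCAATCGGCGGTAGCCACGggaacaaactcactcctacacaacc
Herpud1, chr8:94386279-94386428, strand +: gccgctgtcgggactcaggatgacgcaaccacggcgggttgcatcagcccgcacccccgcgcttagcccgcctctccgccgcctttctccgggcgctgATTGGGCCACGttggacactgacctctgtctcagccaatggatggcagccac
Edem1, chr6:108828491-108828640, strand +: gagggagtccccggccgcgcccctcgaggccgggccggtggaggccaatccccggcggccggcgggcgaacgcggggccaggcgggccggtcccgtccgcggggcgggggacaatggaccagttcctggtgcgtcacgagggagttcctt
In these promoters the first base of the ERSE lay between -145 in Canx and -44 in Syvn1, counted from the start. Hsp90b1 held another match at -212, outside the window shown.

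Levels between genes were compared per length, as TPM (abundance scaled by transcript length) in vehicle tumors. Canx, the membrane lectin chaperone calnexin, was first at 578.2 ± 154.7 TPM (SD, n = 4), followed by Hspa5 at 456.4 ± 161.9 TPM and by Hsp90b1, the ER member of the Hsp90 family, at 371.2 ± 104.2 TPM. Asns (asparagine synthetase), with 335.3 ± 119.1 TPM, and Atf4, with 272.6 ± 108.1 TPM, stood among the top 6 with Calr (calreticulin, 284.4 ± 79.1 TPM). Xbp1 was at 118.7 ± 33.9 TPM. The sensors themselves were low, namely Atf6 at 23.4 ± 4.12 TPM, Eif2ak3 (PERK) at 13.6 ± 3.30 TPM and Ern1 (IRE1α) at 11.6 ± 1.42 TPM. At the bottom of the order were Atf3 at 7.17 ± 1.92 TPM and Derl3 at 0.349 ± 0.246 TPM. Of the 34 neighbors in this order only that last pair had TPM ranges over the vehicle tumors that did not overlap. These ranges leave out that the genes share tumors. They can also be wider than the same gene's spread in CPM. Canx had 463.0, 710.1, 713.0 and 426.7 TPM in vehicle tumors 0 to 3, but 1249 to 1391 CPM. The reason for this difference was not tested. Within each of the 4 vehicle tumors, Canx was above Hspa5, Hspa5 above Hsp90b1 and Hsp90b1 above Asns. Other neighbors, such as Phgdh and Hyou1, changed order between tumors.

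The comparison of SR59230A with vehicle asked whether blocking the receptor went with a shift of these genes in the tumor mass. In edgeR's quasi-likelihood test, a gene was called if its p after Benjamini-Hochberg adjustment was under 0.05 and its log2 fold change reached 0.5 in either direction. None of the 34 tested genes was called, and neither was any of the 15207 genes (0.0%). At an unadjusted p under 0.05 there were 706 genes with edgeR, 831 with DESeq2 and 671 with limma-voom, and of the list 2, 3 and 2 genes. With DESeq2, 17 of 15174 genes were called (0.112%), none of them in the list, whose lowest adjusted p was 0.424. The edgeR adjusted p of the listed genes ran from 0.996 to 1.0, and the largest absolute log2 fold change among them was 0.371, in Syvn1. In tumor RNA, fewer cells of a type and less RNA per cell cannot be told apart.

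The log2 fold changes of the list nevertheless lay mostly above 0. They were above 0 for 28 of 34 genes (82.4%), against 49.6% of all genes tested, and their median was 0.12, against 0.00 (-0.0017) over all genes. The genes share tumors, so this count is a description of these libraries. All 4 SR59230A tumors lay above all 4 vehicle tumors for 3 genes (8.82%), against 1.32% of all genes, and below them for 0 genes, against 1.29%. The 3 genes were Dnajc3, Edem1 and Derl2. At an unadjusted edgeR p under 0.05, 2 genes (5.88%) were higher with SR59230A, against 2.22% of all genes, and 0 lower, against 2.42%.

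**Figure D1:**
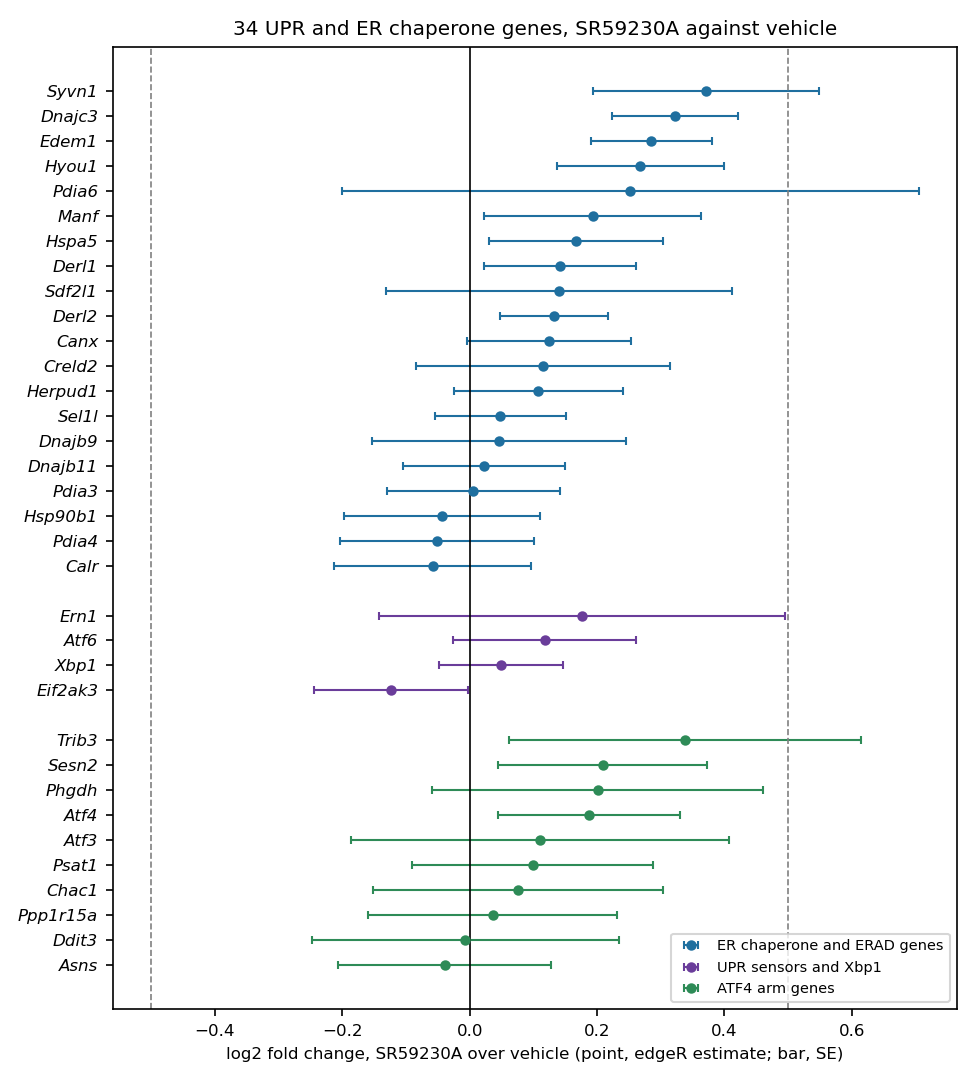
Log2 fold change of SR59230A over vehicle for the 34 tested genes, in 3 groups, with points for the edgeR estimate and bars for the standard error; the dashed lines mark the threshold of 0.5 in either direction. No estimate reaches the threshold, 28 of 34 lie above 0, and Pdia6 has the widest bar (SE 0.45).

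In the chaperone and ERAD group, 17 of 20 tested genes had a log2 fold change above 0, with a median of 0.13 and a range from -0.06 (Calr) to 0.37 (Syvn1). Without vehicle tumor 0, the lowest of the 8 tumors for 7 of these genes, the median was 0.07. Highest after Syvn1 were Dnajc3 (0.32), Edem1 (0.29), Hyou1 (0.27) and Pdia6 (0.25), and lowest after Calr were Pdia4 (-0.05), Hsp90b1 (-0.04) and Pdia3 (0.01). Markers of NB cells moved the other way, with 12 of 13 tested markers below 0 (median -0.40) and sums of 3323 to 4832 CPM in vehicle against 2364 to 3696 CPM in SR59230A tumors. Their part in the chaperone values was not tested.

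Dnajc3 encodes the J-domain co-chaperone P58IPK, which works with BiP. It was measured at 67.6, 71.4, 77.1 and 81.1 CPM in vehicle tumors 0 to 3 and at 84.4, 92.3, 102.3 and 92.6 CPM in SR59230A tumors 1 to 4. Every SR59230A tumor was above every vehicle tumor, and SR59230A tumor 3 was the highest. The log2 fold change was 0.32 (SE 0.10, unadjusted p = 0.00932, edgeR adjusted p = 0.996). The exact two-sided permutation p over the 70 assignments was 0.0286, the smallest that 4 against 4 tumors can give. Groups without overlap always get this value, so for Dnajc3, Edem1 and Derl2 it only restates the separation.

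Edem1 encodes a lectin that takes glycoproteins with trimmed mannose to ERAD. Its vehicle values were 75.5, 77.6, 83.5 and 84.4 CPM, and its SR59230A values 88.8, 102.3, 106.7 and 93.4 CPM. The groups did not overlap, with vehicle tumor 3 and SR59230A tumor 1 the nearest to each other. The log2 fold change was 0.29 (SE 0.10, unadjusted p = 0.0138, edgeR adjusted p = 0.996; exact permutation p = 0.0286). Without each tumor in turn the estimate stayed between 0.24 and 0.33, as that of Dnajc3 stayed between 0.27 and 0.37.

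Derl2, a derlin of the ERAD channel, was the most even gene of the list, with a coefficient of variation of 1.95% in vehicle tumors and 4.69% in SR59230A tumors. Its values were 31.01, 31.15, 31.3 and 32.4 CPM with vehicle and 36.1, 34.1, 35.4 and 32.4 CPM with SR59230A. The groups did not overlap, but vehicle tumor 3 (32.36 CPM) and SR59230A tumor 4 (32.42 CPM) were almost level. The log2 fold change was 0.13 (SE 0.09, edgeR unadjusted p = 0.152, exact permutation p = 0.0286).

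Hspa5, which encodes BiP, the main ER chaperone and a classical readout of the UPR, was at 621.9, 756.0, 836.0 and 795.0 CPM in vehicle tumors. The SR59230A tumors had 790.4, 873.8, 923.3 and 791.3 CPM. The groups overlapped, since vehicle tumors 2 and 3 exceeded SR59230A tumors 1 and 4, and vehicle tumor 0 was the lowest of all. The log2 fold change was 0.17 (SE 0.14, unadjusted p = 0.253, edgeR adjusted p = 0.996), and without vehicle tumor 0 it was 0.09.

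Hsp90b1, the other abundant chaperone, was at 742.7, 753.7, 842.3 and 824.0 CPM in vehicle tumors 0 to 3. In SR59230A tumors 1 to 4 it was at 842.3, 784.0, 575.1 and 866.6 CPM. SR59230A tumor 3, which had the highest Hspa5, thus had the lowest Hsp90b1. The log2 fold change was -0.04 (SE 0.15), and without SR59230A tumor 3 it was 0.07. The same tumor had the lowest value of the 8 for 5 of the 20 chaperone and ERAD genes and the highest for 6, among them Syvn1, Dnajb9, Dnajc3 and Edem1.

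Dnajb9 (ERdj4) is a BiP co-chaperone and a target of XBP1. It was at 27.6, 26.5, 22.5 and 31.4 CPM with vehicle and at 23.1, 19.95, 37.7 and 30.9 CPM with SR59230A. The SR59230A tumors held both the lowest and the highest value, with all vehicle tumors between them, and the log2 fold change was 0.05 (SE 0.20). Sdf2l1, an ER protein that assists BiP and its J-domain partners, was at 16.9, 24.9, 28.3 and 13.9 CPM with vehicle and at 28.4, 29.95, 17.3 and 16.9 CPM with SR59230A. In both groups the tumors numbered 1 and 2 were the high ones, and the log2 fold change was 0.14 (SE 0.27).

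The HRD1 complex retrotranslocates and ubiquitinates ERAD substrates. Its ligase gene Syvn1 was at 18.9, 17.3, 17.5 and 20.2 CPM in vehicle tumors and at 21.8, 21.97, 33.4 and 18.5 CPM in SR59230A tumors. The log2 fold change was 0.37 (SE 0.18, unadjusted p = 0.0658, edgeR adjusted p = 0.996). SR59230A tumor 3 carried much of this difference, and without it the value was 0.16. The adaptor Sel1l was at 0.05 (SE 0.10) on the log2 scale, the derlin Derl1 at 0.14 (SE 0.12) and the scaffold Herpud1 at 0.11 (SE 0.13).

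Hyou1 (GRP170), a nucleotide exchange factor for BiP, had a log2 fold change of 0.27 (SE 0.13, unadjusted p = 0.0695), from 338.1 to 454.5 CPM with vehicle and 429.4 to 533.4 CPM with SR59230A. The disulfide isomerase Pdia6 had the largest spread, 11.7, 50.7, 39.2 and 13.2 CPM in vehicle tumors and 46.8, 26.7, 26.4 and 37.3 CPM in SR59230A tumors. Vehicle tumors 0 and 3 were the low ones, and the log2 fold change was 0.25 (SE 0.45). Of the transcripts in the files, 1062 had no match in the annotation, so reads on an unmatched transcript of a gene are not in its sum; whether this touched Pdia6 was not tested. The remaining members of the group were the J-domain co-chaperone Dnajb11 (0.02), the secreted ER factors Manf (0.19) and Creld2 (0.12), and Canx (0.13), all on the log2 fold scale.

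**Figure D2:**
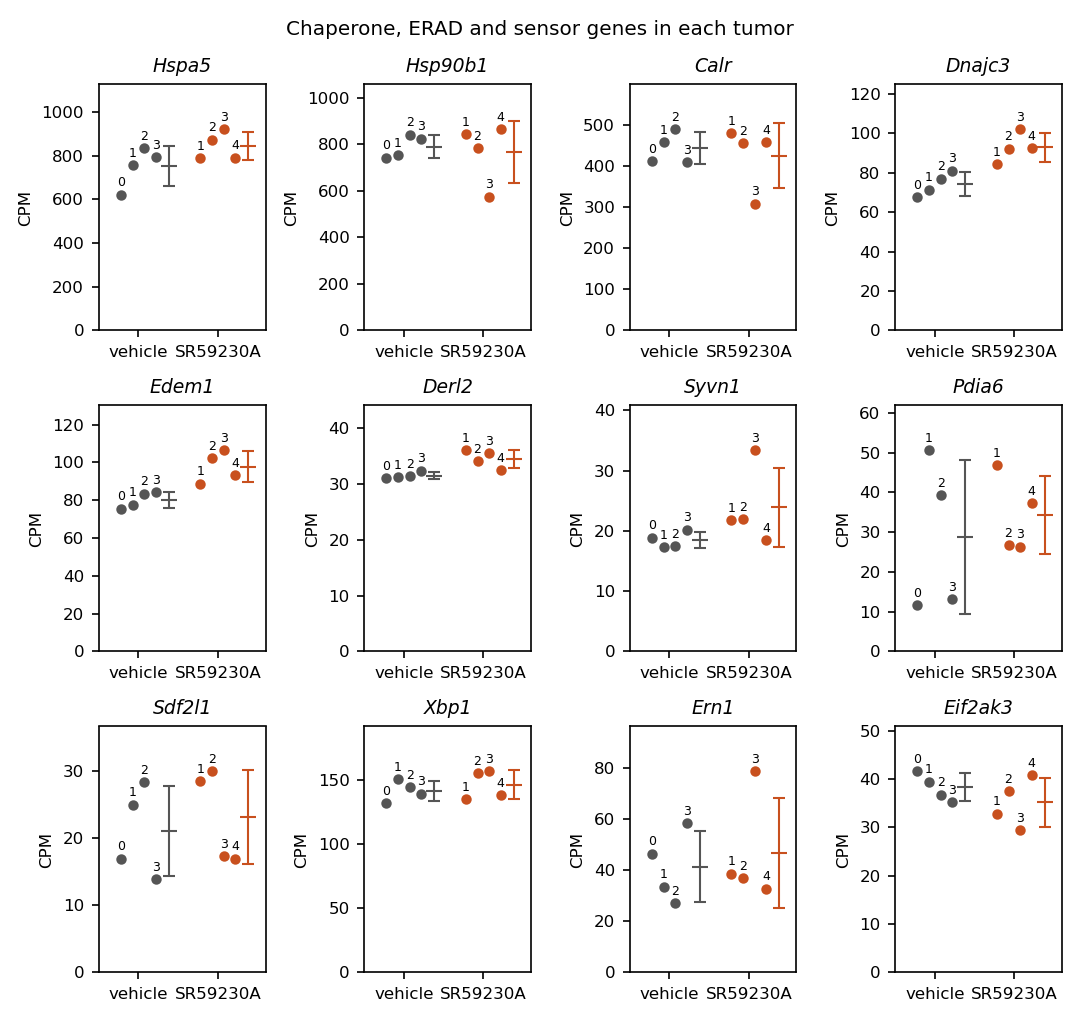
CPM of 12 chaperone, ERAD and sensor genes in each tumor, by treatment on the x axis, with axes from 0, labels giving the tumor number, and lines with bars giving the mean and SD (n = 4). Dnajc3, Edem1 and Derl2 are apart between groups, SR59230A tumor 3 is high for Syvn1 and Ern1 and low for Hsp90b1 and Calr, and vehicle tumors 0 and 3 are low for Pdia6.

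Within the chaperone and ERAD group, the 8 tested genes with an ERSE had a median log2 fold change of 0.15 and a range from -0.06 to 0.37, with 6 above 0. Its 7 tested genes whose given promoter held neither ERSE nor ERSE-II had a median of 0.05 and a range from -0.05 to 0.29, also with 6 above 0. Both ranges overlap almost fully. Dnajc3, shown above with its ERSE, and Edem1, without one, had similar estimates.

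Among the sensor genes the estimates were small beside their errors or about as large as them. Xbp1, which encodes the transcription factor of the IRE1 branch, was at 132.3, 150.8, 144.6 and 139.5 CPM with vehicle and at 135.2, 155.6, 157.3 and 138.5 CPM with SR59230A. The groups overlapped, and the log2 fold change was 0.05 (SE 0.10). Ern1, the sensor and endonuclease IRE1α, was at 46.4, 33.5, 27.1 and 58.4 CPM with vehicle and at 38.6, 36.9, 78.8 and 32.8 CPM with SR59230A. SR59230A tumor 3 stood alone, and the log2 fold change of 0.18 (SE 0.32) became -0.20 without it.

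Atf6, the membrane-bound transcription factor released by proteolysis, was at 107.6, 105.1, 113.8 and 146.3 CPM with vehicle and at 104.2, 135.5, 146.2 and 127.0 CPM with SR59230A. One tumor of the first group was as high as the highest of the second, and the log2 fold change was 0.12 (SE 0.14). Eif2ak3, the eIF2α kinase PERK, was at 41.7, 39.5, 36.8 and 35.3 CPM with vehicle and at 32.9, 37.5, 29.5 and 40.8 CPM with SR59230A. It was the sensor with an estimate below 0 (-0.12, SE 0.12, edgeR unadjusted p = 0.336). The median of the 4 sensor genes was 0.08, and -0.02 without SR59230A tumor 3.

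IRE1 activates XBP1 by excising a short stretch from its mRNA, so the transcript models were searched for that stretch. It was found as 26 bases, at bases 815 to 840 of the model Xbp1-201 (GENCODE M21, gene at chr11:5520659-5525893, strand +, GRCm38), in the coding sequence. The stretch is shown in capitals with the bases around it, from base 790 to base 865.
Xbp1-201: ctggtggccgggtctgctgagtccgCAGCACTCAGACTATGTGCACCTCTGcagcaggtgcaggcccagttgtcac
The stretch was uncut in 3 of the 4 Xbp1 models quantified, and no model held the joined form, so the files cannot separate cut from uncut mRNA and splicing was not measured. Xbp1-201 took 97.1% ± 1.38 (SD, n = 4) of the Xbp1 reads in vehicle tumors and 97.05% ± 1.24 in SR59230A tumors, over a range from 95.2% to 98.3% (exact two-sided permutation p = 0.943).

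In the ATF4 arm, 8 of 10 genes had a log2 fold change above 0, with a median of 0.11 and a range from -0.04 (Asns) to 0.34 (Trib3). None was past an unadjusted p of 0.05 in edgeR, and no gene had groups without overlap. Vehicle tumor 0 had the lowest value of the 8 tumors for 7 of the 10 genes, and without that tumor the median was 0.00 (0.002). SR59230A tumors 2 and 3 each had the highest value for 4 genes.

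Atf4 was at 229.6, 298.5, 351.4 and 288.3 CPM with vehicle and at 312.6, 357.6, 359.9 and 299.4 CPM with SR59230A. Vehicle tumor 2 was within the SR59230A range, and the log2 fold change was 0.19 (SE 0.14, edgeR unadjusted p = 0.223). It was 0.09 without vehicle tumor 0 and 0.29 without vehicle tumor 2. ATF4 is regulated largely at translation, which mRNA levels do not show.

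Ddit3 (CHOP), the stress factor tied to cell death, was at 18.5, 20.5, 20.8 and 31.4 CPM with vehicle and at 15.6, 24.5, 31.7 and 19.0 CPM with SR59230A. In each group tumor 3 was the highest, and the log2 fold change was -0.01 (SE 0.24). Trib3, a pseudokinase induced by ATF4 and CHOP, was at 16.1, 30.1, 28.4 and 23.9 CPM with vehicle and at 21.7, 37.9, 43.7 and 21.6 CPM with SR59230A. SR59230A tumors 2 and 3 exceeded all vehicle tumors while SR59230A tumors 1 and 4 did not, and the log2 fold change was 0.34 (SE 0.28), the largest of the arm, and 0.13 without SR59230A tumor 3.

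Asns was at 306.8, 396.7, 447.6 and 327.0 CPM with vehicle and at 331.7, 455.8, 311.2 and 339.8 CPM with SR59230A, with a log2 fold change of -0.04 (SE 0.17). Psat1 and Phgdh encode enzymes of serine synthesis. Psat1 was at 164.7, 232.1, 266.1 and 182.6 CPM with vehicle and at 256.4, 271.5, 184.7 and 192.9 CPM with SR59230A (log2 fold change 0.10, SE 0.19). Phgdh was at 100.01, 177.3, 209.9 and 120.6 CPM with vehicle and at 199.5, 221.1, 157.9 and 120.5 CPM with SR59230A (log2 fold change 0.20, SE 0.26; 0.05 without vehicle tumor 0 and 0.40 without vehicle tumor 2). For both genes the tumors numbered 1 and 2 were above the others in each group. Pseudogenes share up to 44.8% of the 31-base words of Phgdh, and each of them received at most 9 reads per tumor.

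The rest of the arm lay between 0.04 and 0.21 on the log2 fold scale. These were the eIF2α phosphatase subunit Ppp1r15a (GADD34, 0.04), the glutathione-degrading enzyme Chac1 (0.08), the transcription factor Atf3 (0.11) and the stress-induced mTORC1 regulator Sesn2 (0.21, SE 0.16).

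**Figure D3:**
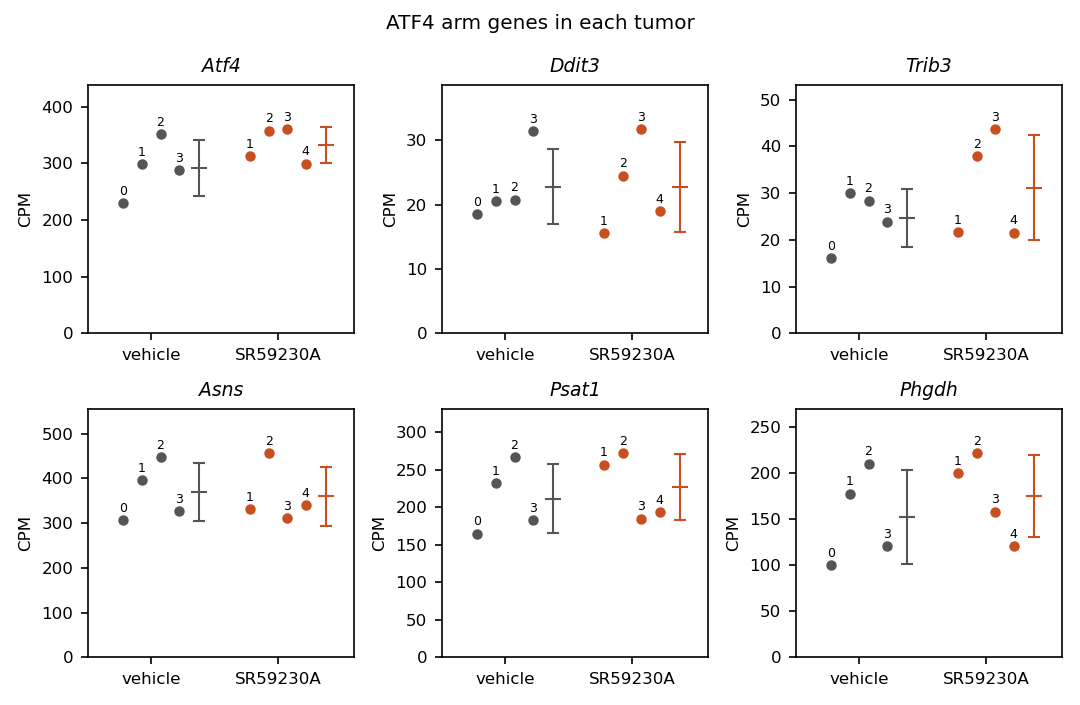
CPM of 6 ATF4 arm genes in each tumor, by treatment on the x axis, with axes from 0, labels giving the tumor number, and lines with bars giving the mean and SD (n = 4). The groups overlap for each gene, and the tumors numbered 1 and 2 are the high ones of both groups for Psat1 and Phgdh.

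The 3 gene groups ordered the tumors differently. As the mean over genes of the log2 CPM minus each gene's 8-tumor mean, the chaperone and ERAD group ran from -0.21 in vehicle tumor 0 to 0.12 in SR59230A tumors 1 and 2, with an SD between tumors of 0.10. The ATF4 arm ran from -0.40 in vehicle tumor 0 to 0.28 in SR59230A tumor 2 (SD 0.24). The sensor genes ran from -0.18 in vehicle tumor 2 to 0.25 in SR59230A tumor 3 (SD 0.16). SR59230A tumor 1 was above 0 for the chaperones (0.12) and below 0 for the ATF4 arm (-0.19), while SR59230A tumor 3 was near 0 for the chaperones (-0.01) and at 0.25 for the ATF4 arm.

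**Figure D4:**
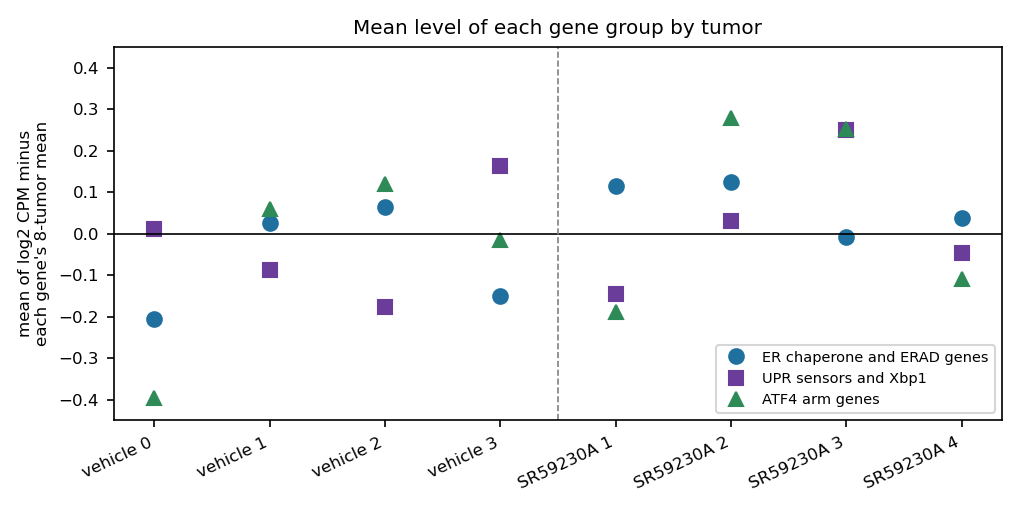
Mean level of each gene group in each tumor, on the y axis as the mean over genes of log2 CPM minus the gene's 8-tumor mean, with tumors on the x axis and a dashed line between treatments. Vehicle tumor 0 is the lowest for the chaperone and ERAD genes (-0.21) and the ATF4 arm (-0.40), and SR59230A tumor 3 is the highest for the sensor genes (0.25).

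Correlations over the 8 tumors on log2 CPM were computed for 6 pairs of genes, with exact permutation p-values adjusted over the 6 pairs. Psat1 and Phgdh moved together (Pearson's r = 0.943, p = 0.00129, adjusted p = 0.0077; Spearman's rho = 0.929, p = 0.00223, adjusted p = 0.0134). Leaving out vehicle tumor 0 and SR59230A tumor 2, the farthest in Psat1, r was 0.894, and it was 0.998 within vehicle and 0.87 within SR59230A (4 tumors each). Tumors numbered 1 and 2 form the upper end in both treatments. Among these tumors the 2 genes gave the same order, and among the other tumors they did not. No r was computed within these sets. The other pairs did not pass the adjustment. Ddit3 and Trib3 had r = 0.621 and rho = 0.762 (exact adjusted p = 0.305 and 0.110), and r = 0.758 without vehicle tumor 3 and SR59230A tumor 3. Atf4 and Asns had r = 0.55 and rho = 0.405 (exact adjusted p = 0.309 and 0.654), with r = 0.852 without vehicle tumor 0 and SR59230A tumor 3.

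The pairs with Hspa5 and the pair of Xbp1 with Dnajb9 showed no clear relation over the 8 tumors, which are too few to exclude one. Hspa5 and Hsp90b1 had r = -0.263 and rho = -0.095 (exact permutation p = 0.435 and 0.840). The value was 0.841 within vehicle and -0.902 within SR59230A, and 0.086 without vehicle tumor 0 and SR59230A tumor 3. Hspa5 and Sdf2l1 had r = 0.256 and rho = 0.214 (exact p = 0.587 and 0.619), and r = 0.398 without the same tumors. Xbp1 and Dnajb9 had r = 0.024 and rho = 0.0 (exact p = 0.955 and 1.0), and r = -0.155 without SR59230A tumors 2 and 3.

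**Figure D5:**
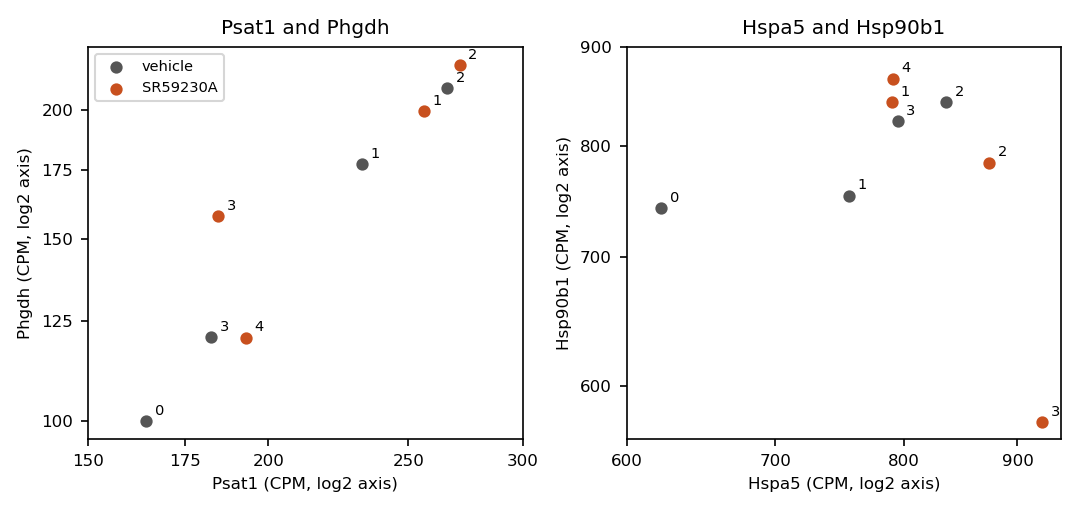
CPM of Phgdh against Psat1 (left) and of Hsp90b1 against Hspa5 (right) in the 8 tumors, on log2 axes, with gray points for vehicle, orange points for SR59230A and labels giving the tumor number. The first pair lies near a line (r = 0.943), and in the second SR59230A tumor 3 has the highest Hspa5 and the lowest Hsp90b1.

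Across the list, the tumors numbered 1 and 2 were above all others within each treatment for 7 of 34 genes (20.6%), against 12.9% of all genes, and below them for 1 gene, Dnajb9, against 11.8%. The 7 genes were Sdf2l1 (1.72 times as high, from the difference in mean log2 CPM), Phgdh (1.64 times), Creld2 (1.44 times), Psat1 (1.42 times), Manf (1.38 times), Pdia4 (1.26 times) and Hyou1 (1.18 times). The same 4 tumors had the 4 lowest shares of satellite-like transcripts (0.00552% to 0.288%). The part of these shares in the gene values was not tested.

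Other genes of the same pathways were also read by list, and none of them was called in edgeR. In the ER translocon and signal peptidase list, 15 of 22 genes were above 0 (median 0.08). Its genes with the smallest p were the signal peptidase subunit Spcs3 (0.40, SE 0.13, edgeR unadjusted p = 0.0099) and the translocon subunit Sec61g (0.45, SE 0.20, edgeR unadjusted p = 0.0497), both without overlap between groups. In this list, 3 of 22 genes had all SR59230A tumors above all vehicle tumors, against 1.32% of all genes tested. Spcs3 was at 155.6, 169.4, 207.5 and 204.7 CPM with vehicle and at 247.6, 232.5, 268.6 and 225.6 CPM with SR59230A. The N-glycosylation and lectin list had 14 of 20 genes above 0 (median 0.06), the other ER folding enzymes 17 of 27 (median 0.08) and the other ERAD components 14 of 24 (median 0.01), with the membrane protein Erlin1 at 0.35 (edgeR unadjusted p = 0.0253). Among other UPR regulators 14 of 28 were above 0 (median 0.00, 0.001). Both genes with p under 0.05 were lower, namely Zbtb17 (-0.30) and the amino acid sensing eIF2α kinase Eif2ak4 (GCN2, -0.23). All SR59230A tumors lay above all vehicle tumors for 2 of 27 other ER folding enzymes and 1 of 28 other regulators. They lay below for 1 of the 28 regulators, Eif2ak4, against 1.29% of all genes. In the N-glycosylation and other ERAD lists, 0 genes were without overlap.

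Transporters and amino acid enzymes under ATF4 were above 0 in 18 of 21 genes (median 0.12), with the neutral amino acid transporters Slc38a2 at 0.28 and Slc1a4 at 0.38 (edgeR unadjusted p = 0.0209 and 0.0382). Slc38a2 was the only 1 of these 21 genes with all SR59230A tumors above all vehicle tumors. Aminoacyl-tRNA synthetases were above 0 in 5 of 13 (median -0.02). The regulators and secreted factors under ATF4 were above 0 in 11 of 18 (median 0.11), with the secreted stress proteins Gdf15 at 0.84 (SE 0.32) and Stc2 at 0.61 (SE 0.27). Heat shock genes for misfolding outside the ER, in the cytosol and (Hspd1 and Hspe1) in mitochondria, were above 0 in 6 of 23 (median -0.11). Hspa8, the constitutive cytosolic Hsp70, had all SR59230A tumors below all vehicle tumors (-0.28, SE 0.15, edgeR unadjusted p = 0.0842). It was the only 1 of the 23 genes without overlap, against 1.29% of all genes that were lower in this way. The small heat shock gene Hspb1 was at 2.77 (SE 0.98). Hspb1 was at 11.8 CPM in SR59230A tumor 1, the tumor with 2349 CPM of muscle markers, and at 0.368 to 1.217 CPM in all other tumors.

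Markers of the other cell types that a tumor mass can hold were summed beside these values. Plasma and B cells, which are rich in ER chaperones, had 4 of 12 markers tested, 2 above 0 and 2 below (median 0.17, range -0.38 to 0.52). Their sums were 61.0 to 68.9 CPM with vehicle and 50.8 to 66.4 CPM with SR59230A. Most of the 12 had few reads, with a median over markers of 9.75 reads per tumor. Fibroblast markers had 9 of 11 above 0 (median 0.37; 1146 to 1883 against 1537 to 1931 CPM) and macrophage markers 8 of 10 (median 0.30; 274.2 to 604.0 against 403.6 to 601.1 CPM). All 7 tested skeletal muscle markers (median 4.06) and all 5 tested adipocyte markers (median 0.98; 19.4 to 44.0 against 9.85 to 138.6 CPM) were above 0. Endothelial markers (1 of 7 above 0, median -0.08), T and NK cell markers (0 of 3, median -0.64) and erythroid markers (1 of 5, median -0.57) were mostly below 0. The T and NK cell markers had few reads. Only 3 of 8 were tested, and their sums were 1.48 to 3.91 CPM with vehicle and 1.31 to 1.59 CPM with SR59230A. No marker was at 0 in all tumors, and the part of these cells in the values of the UPR genes was not tested.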

How the data were processed

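Total RNA of 8 N2A tumors (4 vehicle, 4 SR59230A) was sequenced from TruSeq stranded libraries. The authors quantified reads with Salmon and deposited estimated counts (expected counts, not whole) and TPM per transcript for each tumor, together with DESeq2 normalized counts by symbol (a signal made comparable across libraries), a table that holds 16 of the 35 genes. The methods name annotation of GRCm38 and the submitters' processing notes name GRCm39. Identifiers matched GENCODE M21 (GRCm38) for 99.1% of transcripts, nearly all with a later version in the files, and the 1062 without a match held 0.4% to 0.5% of the estimated counts.

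Estimated counts were summed per gene, rounded and tested with edgeR 4.0.16 in R 4.3.3 (TMM factors, filterByExpr, quasi-likelihood test, Benjamini-Hochberg over all 15207 genes). CPM use TMM-scaled library sizes. Alternatives used DESeq2 1.42.0, limma 3.58.1, other scalings, filters and units, a replicate block and subsets of tumors. Single genes were compared by exact permutation of log2 CPM (prior count 2). Replicates were compared, and each pair differed by more than sampling noise. The lowest chi-square per degree of freedom was 48.2, for vehicle tumors 1 and 2, and the other pairs had 107.8 to 530.5. These values cannot tell separate tumors from separate preparations of 1 tumor. The lowest member tested had 211 reads in a tumor.

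All listed genes are named. Values in each tumor are given for genes without overlap or with an unadjusted p under 0.05 and for 14 genes fixed by name, and for Pdia6, Syvn1 and Spcs3, which were added after their values were seen. Of other lists, at most 2 genes with the smallest p are named. Members and lists were chosen with earlier results of these data known. Promoters are from RefSeq (GRCm38.p6).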

Additional observations from a re-analysis of the deposited data

Results flagged for a closer look

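In 68 groups of 4 tumors (34 genes in 2 treatments), 3 values lay far from the other tumors of their group by Dixon's criterion, which chance meets in about 1 of 20 groups (here 4.41%). Calr was at 307.9 CPM in SR59230A tumor 3, the lowest of its group, against 454.1 to 479.4 CPM in the other SR59230A tumors. Ern1 was at 78.8 CPM in SR59230A tumor 3, the highest of its group, against 32.8 to 38.6 CPM. Atf3 was at 15.8 CPM in vehicle tumor 3, the highest of its group, against 7.58 to 8.96 CPM. Both tumors had high shares of mitochondrially encoded reads (7.50% and 6.14%), and the part of those shares in the 3 values was not tested.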

How the results depend on the processing

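No listed gene was called in any of the 23 alternatives run. Over all genes, 17 were called with DESeq2, 5 in the tumors other than those numbered 1 and 2, 0 to 1 when each tumor was left out (1 without SR59230A tumor 4) and 0 otherwise. The medians stayed above 0 in the 15 alternatives that did not leave out 1 tumor, from 0.073 to 0.176 for the chaperone and ERAD genes, 0.058 to 0.140 for the sensor genes and 0.019 to 0.295 for the ATF4 arm. Leaving out each tumor gave 0.074 to 0.176, -0.022 to 0.146 and 0.002 to 0.211. The direction held in each fit that gave a value for 13 genes, Dnajc3, Edem1, Derl1, Atf6, Atf4, Trib3 and Sesn2, and, without a value on the authors' normalized counts, Hspa5, Canx, Hyou1, Syvn1, Derl2 and Eif2ak3. Those counts gave values for 15 of the 34 genes, and the medians on them rest on 8 of 20 chaperone and ERAD genes, 2 of 4 sensor genes and 5 of 10 ATF4 arm genes. Dnajc3 ranged from 0.255 to 0.391 and Edem1 from 0.236 to 0.346. The causes of the reversals that follow, all in genes with small or variable fold changes, were not tested.

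The replicate numbers were not taken to pair the tumors. In their deviations from group means, the tumors numbered 2 correlated at 0.626 and those numbered 3 at 0.534, but those numbered 1 at 0.010, and vehicle tumor 1 correlated best with SR59230A tumor 2 (0.631). With the replicate block (tumors numbered 1 to 3) 0 genes were called and the log2 fold change turned for Dnajb9 (-0.034), Dnajb11 (-0.076), Pdia3 (-0.111), Ppp1r15a (-0.174) and Atf3 (-0.020). In the tumors numbered 1 and 2 only, Hsp90b1 (0.031), Dnajb9 (-0.186), Pdia4 (0.025), Pdia6 (-0.291), Herpud1 (-0.005), Xbp1 (-0.019), Ppp1r15a (-0.226) and Chac1 (-0.210) turned, and in the others Pdia3 (-0.005), Sel1l (-0.040), Ddit3 (0.019) and Asns (0.030). Without SR59230A tumors 1 and 2, Dnajb11 (-0.039), Sdf2l1 (-0.302), Pdia3 (-0.006), Manf (-0.030), Creld2 (-0.225), Ddit3 (0.152), Psat1 (-0.165) and Phgdh (-0.130) turned. Without vehicle tumors 0 and 3 and SR59230A tumor 4, Dnajb11 (-0.110), Sdf2l1 (-0.063), Pdia3 (-0.092), Pdia6 (-0.423), Creld2 (-0.005), Ddit3 (0.227), Ppp1r15a (-0.070), Chac1 (-0.062) and Psat1 (-0.056) turned. Other units and filters turned Pdia3 (-0.001 with RLE factors and with DESeq2, -0.011 with limma-voom), Dnajb9 (-0.013 with limma-voom, -0.032 with length offsets, -0.064 on the authors' normalized counts), Ppp1r15a (-0.010 with limma-voom) and Ddit3 (0.004 without a filter, 0.006 with upper-quartile factors, 0.011 with length offsets, 0.035 on TPM).

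Leaving out each tumor turned 16 genes at least once, over ranges of -0.108 to 0.067 for Hsp90b1, -0.138 to 0.178 for Dnajb9, -0.046 to 0.118 for Dnajb11, -0.014 to 0.318 for Sdf2l1, -0.094 to 0.102 for Pdia3, -0.124 to 0.065 for Pdia4, -0.003 to 0.678 for Pdia6, -0.121 to 0.064 for Calr, -0.049 to 0.228 for Creld2, -0.203 to 0.387 for Ern1, -0.215 to 0.184 for Ddit3, -0.070 to 0.212 for Ppp1r15a, -0.068 to 0.194 for Chac1, -0.175 to 0.069 for Asns, -0.100 to 0.414 for Atf3 and -0.002 to 0.232 for Psat1. Without a turn, the ranges were 0.095 to 0.294 for Manf, 0.026 to 0.198 for Herpud1, 0.003 to 0.101 for Sel1l, 0.076 to 0.202 for Derl1, 0.009 to 0.086 for Xbp1, 0.043 to 0.236 for Atf6, -0.203 to -0.053 for Eif2ak3 and 0.092 to 0.310 for Sesn2. The difference in the Xbp1-201 share ranged from -0.701 to 0.304 percentage points. With 4 tumors a group, 0.0286 was the smallest permutation p that could be reached.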
